A study of Mus musculus with 1049 samples.

Results

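The insulin-like growth factor (IGF) system was followed through 9 genes in single mouse dermal fibroblasts, comprising the ligand gene Igf1, the receptor gene Igf1r, the binding protein genes Igfbp2, Igfbp3, Igfbp4, Igfbp5, Igfbp6 and Igfbp7, and the protease gene Pappa. The genes were taken by name, and each matched 1 of the 51777 genes shared by all count tables. All 9 passed the filter on low counts and were among the 16684 genes tested. Cells came from the skin of C57Bl/6 mice of 3 ages, with no treatment or altered allele given in the labels. Newborn mice were 1.5 or 2.5 days old (littermates of postnatal day 2, female, where newborn subpopulations were studied), young mice were 2 months old and old mice were 18 months old. Fibroblasts were sorted after removal of anagen patches and subdermis, with staining for CD45, CD117, EpCam, CD31, CD34 and Pdgfra (CD24 is listed too, with the remark that it was not used for lineage selection). The labels also describe a newborn stain with Dlk1, CD26 and Sca1 and do not say which newborn cells it was used for, so a difference in the sort and a difference in age cannot be told apart. The labels name experiments 1 and 2 and no mice, and p-values therefore measure only the spread between the experiments.

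IGF-1 is a secreted growth factor that binds the receptor tyrosine kinase IGF1R, which signals through PI3 kinase and AKT and through the RAS and MAP kinase pathway. Most IGF in tissue is held by secreted binding proteins, which keep it from the receptor, carry it or store it in the matrix, and pregnancy-associated plasma protein A, the product of Pappa, frees it by cutting IGFBP4 and IGFBP5. IGFBP6 prefers IGF-2 over IGF-1, and IGFBP7 binds IGFs only weakly. In skin, dermal fibroblasts are a known local source of IGF-1 for the epidermis.

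Full-length cDNA of 735 kept cells (249 newborn, 246 young and 240 old) had been sequenced with Smart-seq2, at a median of 1068178, 1187652 and 1381116 reads on genes per cell. Reads were added over the cells of each age and experiment. The 6 sums held between 119682449 and 195324769 reads, so n = 2 for each age. Levels of sums are given as CPM, reads scaled to a common library size by TMM. CPM of single cells and of plates were scaled by their own reads alone, without TMM. The TMM factors were 1.20 and 1.19 for newborn sums and 0.88 to 0.95 for adult sums, so CPM of cells and plates are not on the scale of the sums. The fibroblast label was set beside its markers, and all of them were read. Among the marker lists, Pdgfra, Ptprc, Kit, Epcam and Pecam1 encode targets of the sort's stains, so for them this is no independent check. Col1a1, Col1a2, Dcn, Lum and Pdgfra together reached 43160 to 52931 CPM in newborn, 162349 to 164135 in young and 132524 to 140291 in old sums. Of 6 immune markers Ptprc and Cd3e had no read, and the list summed to 2.73 to 2.84 CPM in newborn, 53.0 to 187 in young and 23.1 to 39.5 in old sums. Of 5 endothelial markers Cdh5 and Tie1 had no read, with list sums of 5.65 to 23.5, 44.5 to 82.0 and 63.2 to 74.3 CPM, and 4 epithelial markers summed to 17.1 to 33.3, 43.6 to 47.3 and 57.1 to 70.9 CPM. Of 5 mural cell markers Rgs5 had no read, and the list summed to 21.4 to 111, 4.70 to 11.4 and 4.81 to 16.4 CPM. Schwann cell, melanocyte, adipocyte, mast cell and skeletal muscle lists summed to at most 7.41 CPM in any sum. The fibroblast, immune, endothelial and epithelial lists were higher in adult than in newborn sums, as were Igfbp5, Igfbp6 and Igfbp7 below, and their part in those differences was not tested.

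Igfbp5, Igfbp6 and Igfbp7 stood 12.4- to 56.3-fold higher by mean level in young and old than in newborn sums and were higher in each experiment, and 1 of the 3, Igfbp5, passed the test. Igfbp5 averaged 1036 ± 20.4 CPM in young and 70.8 ± 19.1 CPM in newborn sums (SD, n = 2 each), a log2 fold change of 3.87 ± 0.33 (SE). In old sums Igfbp5 averaged 1267 ± 326 CPM, a log2 fold change of 4.16 ± 0.33 over newborn. By edgeR (quasi-likelihood F test, p adjusted by Benjamini-Hochberg over all genes), the adjusted p was 0.024 for young over newborn and 0.018 for old over newborn. With experiment as a replicate block neither passed, at edgeR adjusted p of 0.079 and 0.066, at log2 fold changes of 3.87 and 4.17. None of the 9 genes passed between old and young sums.

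**Figure D1:**
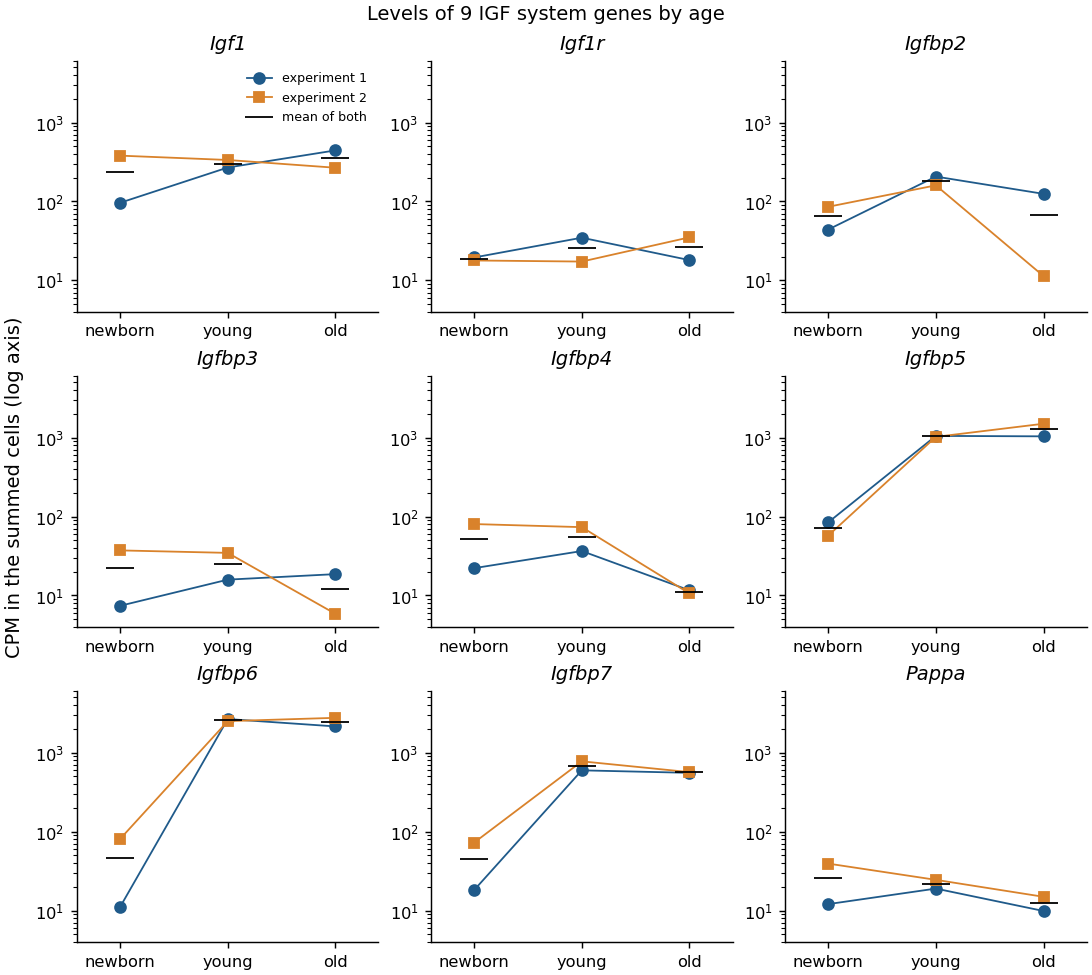
Level of each of the 9 genes in CPM (log axis) in the summed cells of newborn, young and old mice, with circles for experiment 1, squares for experiment 2 and dashes for the mean of both. Igfbp5, Igfbp6 and Igfbp7 lie far higher in young and old than in newborn sums in both experiments, while Igf1, Igf1r, Igfbp3, Igfbp4 and Pappa have overlapping young and newborn sums.

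The sequences before the start sites of these 3 genes are shown because the genes were high together in adult sums, with that of Igfbp4, which did not follow them, for contrast. They are the 250 bases before the RefSeq start site (RefSeq, GRCm38.p6), in lower case and on the gene's strand, with capitals for the TATA box word TATAAA, its variant TTTAAA, the GC box word GGGCGG and the CCAAT box, found on either strand without overlap.
Igfbp5: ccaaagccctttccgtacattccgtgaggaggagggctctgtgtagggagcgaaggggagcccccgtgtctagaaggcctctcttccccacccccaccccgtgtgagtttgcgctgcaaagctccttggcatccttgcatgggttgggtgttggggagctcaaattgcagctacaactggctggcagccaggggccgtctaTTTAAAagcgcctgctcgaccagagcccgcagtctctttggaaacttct
Igfbp6: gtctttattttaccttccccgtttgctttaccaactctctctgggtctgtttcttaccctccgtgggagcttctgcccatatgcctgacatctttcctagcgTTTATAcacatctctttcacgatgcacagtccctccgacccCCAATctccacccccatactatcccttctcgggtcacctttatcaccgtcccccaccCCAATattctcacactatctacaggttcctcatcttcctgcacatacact
Igfbp7: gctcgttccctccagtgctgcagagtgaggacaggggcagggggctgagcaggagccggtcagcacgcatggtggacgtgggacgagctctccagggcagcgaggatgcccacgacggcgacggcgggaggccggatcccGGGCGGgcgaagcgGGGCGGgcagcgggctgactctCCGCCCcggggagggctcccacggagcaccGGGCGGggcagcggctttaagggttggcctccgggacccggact
Igfbp4: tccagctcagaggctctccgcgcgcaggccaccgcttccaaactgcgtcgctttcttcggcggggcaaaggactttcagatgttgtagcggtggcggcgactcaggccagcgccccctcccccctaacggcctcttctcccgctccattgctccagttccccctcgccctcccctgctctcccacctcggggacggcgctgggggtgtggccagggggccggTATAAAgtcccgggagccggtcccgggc
The Igfbp5 stretch lies at chr1:72874866-72875115 on the minus strand, Igfbp6 at chr15:102143936-102144185 on the plus strand, Igfbp7 at chr5:77408046-77408295 on the minus strand and Igfbp4 at chr11:99040994-99041243 on the plus strand. GENCODE M21 places the start of Igfbp6 176 bases further into the gene than RefSeq, and the other 3 within 19 bases. The 3 genes shared no capitalised motif. Igfbp5 holds TTTAAA at bases -49 to -44 from the start site, a word in 13.2% of 32851 promoters of 300 bases (250 before to 50 after the start). Igfbp6 holds CCAAT 2 times, at -107 and -50, against 37.4% of promoters with at least 1, and TATAAA on the reverse strand at -148, against 13.6%. Igfbp7 holds GGGCGG 4 times between -110 and -39, against 35.7% of promoters with at least 1, and Igfbp4 holds TATAAA at -28 to -23. The forkhead word GTAAACA, in 3.65% of promoters, was in none of the 8 members' promoters in the table. Bases G and C made up 58.8% of the Igfbp5, 49.6% of the Igfbp6, 74.0% of the Igfbp7 and 69.2% of the Igfbp4 stretch.

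Igf1, the ligand gene (chr10:87858265-87937042, plus strand, GRCm38), was read at all ages with no difference past the test. It stood at 96.3 and 381 CPM in newborn sums, 269 and 335 in young sums, then 444 and 267 in old sums (experiments 1 and 2). The ages overlapped, and the newborn sums spanned both young sums. Experiment 1 had a log2 ratio of 1.48 for young over newborn and 2.20 for old over newborn, while experiment 2 had -0.18 and -0.51. The fitted log2 fold changes were 0.23 ± 0.68 for old over young, 0.34 ± 0.68 for young over newborn and 0.58 ± 0.68 for old over newborn (SE, n = 2 each), with edgeR adjusted p of 1, 0.934 and 0.809. The share of cells with an Igf1 read was 19.6% and 29.7% in newborn cells, 40.1% and 60.6% in young cells, then 42.1% and 43.0% in old cells. In newborn sums these reads lay in few cells, with 5 of 158 cells holding 50% of them in experiment 1 and 3 of 91 in experiment 2, against 7 to 11 cells in each adult set. In such sums, a larger share of Igf1 cells and more RNA per cell cannot be told apart. Among cells with a read, the median was 505.5 and 747 CPM in newborn cells, 437 and 364 in young cells, then 702.7 and 396 in old cells. Adult cells with Igf1 were more frequent in both experiments, and in experiment 2 they had a lower median than newborn ones. On mean log2 levels per cell, limma gave larger log2 fold changes, 2.11 for young and 1.52 for old over newborn. Neither passed after adjustment. Igf1os, an antisense gene that overlaps Igf1, had 1012 reads in the newborn sum of experiment 1 and 112 in the young sum of experiment 2, and none in the other sums. Since the strand setting of the counting is not given in the sources used here, reads of the 2 genes are not told apart with certainty.

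Igf1r, which encodes the receptor (chr7:67952827-68233668, plus strand), was read at a low level, with overlapping ages. The sums held 19.5 and 17.9 CPM in newborn cells, 34.8 and 17.3 in young cells, then 18.1 and 35.1 in old cells. The experiments went opposite ways between old and young, at log2 ratios of -0.94 and 1.02. Fitted log2 fold changes lay between 0.03 ± 0.62 and 0.51 ± 0.62 (SE), and none passed edgeR's test. A read was seen in 7.1% to 12.3% of cells in each set.

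Igfbp6 (chr15:102144362-102149511, plus strand) had the highest level per length of the 9 in all adult sums. It stood at 11.1 and 80.6 CPM in newborn sums, 2663 and 2505 in young sums, then 2148 and 2759.8 in old sums. Newborn and adult sums did not overlap, and every adult sum was more than an order of magnitude above either newborn sum. Young sums averaged 2584 ± 112 CPM and newborn sums 45.9 ± 49.2 CPM (SD, n = 2 each), which is 56.3-fold, and old sums averaged 2454 ± 433 CPM, which is 53.5-fold over newborn. The log2 fold changes of 5.82 ± 1.06 and 5.74 ± 1.06 (SE) did not pass edgeR's test, at adjusted p of 0.127 and 0.117. Within the experiments the log2 ratio of young over newborn was 7.91 and 4.96, and that of old over newborn 7.60 and 5.10. As a ratio, though not in CPM, the newborn sums differed more between experiments than the adult ones. Without the newborn sum of experiment 2 the log2 fold changes were 7.87 and 7.79. That fit had a lone newborn sum and so no spread between newborn sums. Most of the newborn reads came from few cells, as 1 cell held 72.9% of the Igfbp6 reads in experiment 1 and another held 53.4% in experiment 2. The 27 of 249 newborn cells with any Igfbp6 read had a median of 2.59 CPM, against 2089.9 CPM in the 236 of 246 young and 1974 CPM in the 229 of 240 old cells with a read.

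Igfbp5 (chr1:72857932-72874884, minus strand) encodes a binding protein that attaches to extracellular matrix. It had 84.3 and 57.3 CPM in newborn sums, 1050.2 and 1021 in young sums, then 1037 and 1497 in old sums. The newborn sums lay below all adult sums, and the young and old sums overlapped. Its experiments gave log2 ratios of 3.64 and 4.16 for young over newborn and 3.62 and 4.71 for old over newborn, a narrower spread than for Igfbp6 and Igfbp7. A read was seen in 17.1% and 14.3% of newborn cells, 83.8% and 72.1% of young cells, then 74.6% and 86.0% of old cells. Old over young gave 0.29 ± 0.29 (SE), with opposite signs of -0.02 and 0.55 in the experiments. Both calls of Igfbp5 were lost when any 1 of the 6 sums was left out, at edgeR adjusted p of 0.088 to 0.151 for young over newborn and 0.079 to 0.133 for old over newborn, with log2 fold changes of 3.62 to 4.18 and 3.87 to 4.47. Leaving out a sum takes 1 of the 3 residual degrees of freedom.

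Igfbp7 (chr5:77349240-77408041, minus strand), whose product lies in basement membranes and vessel walls, had 18.2 and 72.6 CPM in newborn sums, 597 and 776 in young sums, then 555 and 566 in old sums. Adult sums were all above the newborn ones. The log2 fold change was 3.92 ± 0.72 for young over newborn and 3.63 ± 0.71 for old over newborn (SE), with edgeR adjusted p of 0.129 and 0.132. The experiments had log2 ratios of 5.04 and 3.42 for young over newborn, and 4.93 and 2.96 for old over newborn. Old sums were below young sums in both experiments without overlap, yet by no more than the error, at -0.29 ± 0.64 (SE). Reads of Igfbp7 were found in 9.5% and 22.0% of newborn cells, 79.6% and 88.5% of young cells, then 69.8% and 72.8% of old cells. Without the newborn sum of experiment 2, which left a lone newborn sum, the log2 fold changes over newborn were 5.24 and 4.95.

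Each of the 9 plates held all ages, which allowed the 3 genes to be compared plate by plate, with 20 to 32 kept cells of an age on a plate. Igfbp5, Igfbp6 and Igfbp7 were each higher in young than in newborn cells, and higher in old than in newborn cells, on 9 of 9 plates. Plate levels of Igfbp5 ran between 10.2 and 142 CPM in newborn cells, 441 and 1342 in young cells, then 776 and 1694 in old cells. Igfbp6 ran between 0 and 144 CPM in newborn cells, 1529 and 3051 in young cells, then 1732 and 2856 in old cells. Igfbp7 ran between 0 and 155 CPM in newborn cells, 378 and 897 in young cells, then 355 and 699 in old cells. For none of the 3 genes did a newborn plate reach an adult one. Plates of 1 experiment may share mice and are not replicates of an age.

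**Figure D2:**
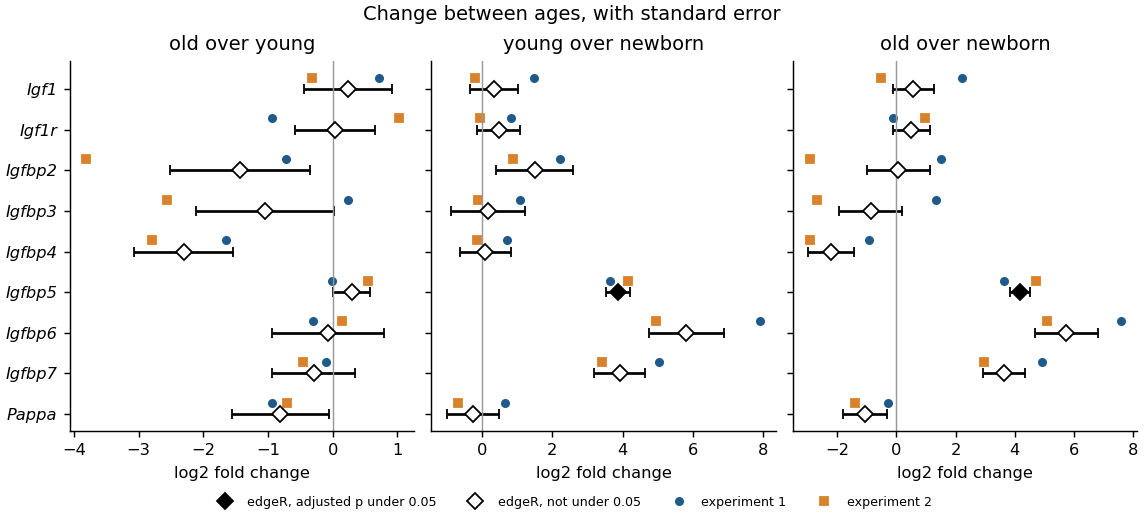
Log2 fold change of the 9 genes for old over young, young over newborn and old over newborn, as edgeR estimate with standard error (diamonds) and as ratio within experiment 1 (circles) and 2 (squares). Filled diamonds mark an adjusted p under 0.05, reached by Igfbp5 in both newborn comparisons, at 3.87 and 4.16.

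Igfbp2 (chr1:72824503-72852474, plus strand), a binding protein of fetal tissue and serum and a neighbour of Igfbp5 at a distance of 5457 bases, did not follow it. Its sums held 44.1 and 85.7 CPM in newborn cells, 207 and 160.0 in young cells, then 125 and 11.3 in old cells. Young sums were above newborn sums without overlap, at 1.50 ± 1.09, and above old sums, where old over young gave -1.43 ± 1.08 (SE). That value was -4.03 without the old sum of experiment 1 and -0.56 without that of experiment 2. No comparison of Igfbp2 passed edgeR's test, at adjusted p of 0.984 for old over young, 0.654 for young over newborn and 0.995 for old over newborn. Its reads lay in few cells, 14 and 13 newborn, 11 and 5 young and 9 and 3 old, and 1 to 4 cells held 50% of the reads in every sum. Among cells with a read, the median was 469 and 351 CPM in newborn, 1254 and 1545 CPM in young, then 1007 and 370 CPM in old cells.

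Igfbp4 (chr11:99041244-99054392, plus strand), a substrate of PAPPA that inhibits IGF action, was lower in old than in young sums in both experiments without passing the test. It had 22.2 and 80.3 CPM in newborn sums, 36.6 and 73.3 in young sums, then 11.6 and 10.6 in old sums. The log2 fold change was -2.31 ± 0.76 for old over young and -2.20 ± 0.76 for old over newborn (SE), with edgeR adjusted p of 0.910 and 0.270. Old over young was -1.06 with cells thinned to 100000 reads and -0.08 with limma on mean log2 levels per cell, and old over newborn was -1.63 and -0.63. Without the newborn sum of experiment 2 old over newborn was -0.996. Single cells carried much of the level, with 52.1% and 27.0% of the newborn reads, 61.1% and 79.5% of the young reads, then 80.2% and 56.5% of the old reads in 1 cell of each experiment. With the cell of most reads left out of each sum, an alternative added after the data were seen, young over newborn turned to -1.24, against 0.10 with all cells. By share of cells, Igfbp4 had a read in 7.0% and 12.1% of newborn cells, 2.1% and 3.8% of young cells, then 3.2% and 1.8% of old cells. By plate, unlike in the sums, it was higher in old than in young cells on 4 of 9 plates and lower on 2. The remaining plates had no Igfbp4 read in young or old cells.

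Igfbp3 (chr11:7206086-7213923, minus strand), the main IGF carrier of serum, was read in the fewest old cells among the binding protein genes. It stood at 7.40 and 37.2 CPM in newborn sums, 15.9 and 34.6 in young sums, then 18.6 and 5.85 in old sums. All ages overlapped, and the log2 fold change of old over young was -1.04 ± 1.06 (SE). The reads came from 4 of 158 and 10 of 91 newborn cells, from 7 of 142 and 9 of 104 young cells, and from 2 of 126 and 1 of 114 old cells.

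Pappa (chr4:65124174-65357509, plus strand), the protease gene, had 12.1 and 39.3 CPM in newborn sums, 19.0 and 24.5 in young sums, then 9.86 and 14.9 in old sums. Old sums were below young sums in both experiments, at log2 ratios of -0.94 and -0.71, and the fitted -0.81 ± 0.75 (SE) did not pass edgeR's test, at adjusted p of 1. A single cell held 81.7% and 45.3% of the Pappa reads in the young sums, and 49.3% and 28.7% in the old sums. Old over young was -0.11 with the cell of most reads left out of each sum and -0.04 with cells thinned to 100000 reads. By plate, Pappa was higher in old than in young cells on 5 of 9 plates and lower on 4. Newborn sums overlapped with those of both adult ages. A read was seen in 3.2% and 6.6% of newborn cells, in 2.8% and 7.7% of young cells, and in 3.2% and 7.9% of old cells.

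The calls among the 9 rested on 1 gene, Igfbp5. Between young and newborn, edgeR called 1 of 9, which was higher, where it called 0.779% of all genes in either direction, 0.719% higher and 0.0599% lower. With the replicate block it called 25 genes in place of 130 there and 51 in place of 156 between old and newborn, and 0 of 9 in both. Between old and newborn, edgeR called 1 of 9, which was higher, where it called 0.935% of all genes in either direction, 0.797% higher and 0.138% lower. Between old and young, edgeR called 0 of 9 and 0% of all genes. Igfbp4 alone had an unadjusted edgeR p under 0.05 between old and young, where 810 of all genes, or 4.85%, had one. Such a p was found for 3 of 9 between young and newborn, beside 13.3% of all genes, and for 4 of 9 between old and newborn, beside 15.2%. DESeq2 called 0 of 9 between old and young and 1047 genes in all, and limma on mean log2 levels per cell called 0 and 0. In the newborn comparisons both DESeq2 and limma called Igfbp5, Igfbp6 and Igfbp7 higher in young and in old sums, and DESeq2 also called Igfbp4 lower in old than in newborn sums, at adjusted p of 0.032. Of all 16684 genes, DESeq2 called 2358 between young and newborn and 2828 between old and newborn, and limma called 1092 and 1414. Sums did not overlap for 4 of 9 between young and newborn, all higher (Igfbp2, Igfbp5, Igfbp6, Igfbp7), where 47.2% of all genes did not overlap, 22.1% higher and 25.1% lower. They did not overlap for 4 of 9 between old and newborn, with Igfbp5, Igfbp6 and Igfbp7 higher and Igfbp4 lower, where 47.3% of all genes did not overlap, 21.6% higher and 25.7% lower. Between old and young, 4 of 9 were lower without overlap (Igfbp2, Igfbp4, Igfbp7, Pappa), where 30.9% of all genes did not overlap, 15% higher and 15.9% lower. The median log2 fold change of the 9 was -0.29 for old over young, 0.48 for young over newborn and 0.51 for old over newborn, beside 0, -0.07 and -0.08 over all genes tested.

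Levels of different genes were compared per length of merged exons, as TPM (reads per exon length, scaled to a common total) within a sum. In all 4 adult sums the order was Igfbp6, Igfbp7, Igfbp5, at 5456 and 5052 TPM for Igfbp6 in young and 4417 and 5425 TPM in old sums. Igfbp7 followed at 1124 and 1439 TPM in young and 1049 and 1023 TPM in old sums, and Igfbp5, which is longer, at 398 and 381 TPM in young and 395 and 545 TPM in old sums. These 3 ranges did not overlap. Newborn sums had no common order, as Igfbp2 led in experiment 1 with 69.7 TPM and Igfbp6 in experiment 2 with 212 TPM. Igf1r and Pappa were within the lowest 3 of the 9 in every sum, at 2.05 to 10.4 TPM. The 6 binding protein genes together reached 205 and 638 TPM in newborn, 7263 and 7129 TPM in young and 6034 and 7016 TPM in old sums. Igfbp6 made up 14.2% and 33.2% of that total in newborn sums, 75.1% and 70.9% in young sums, then 73.2% and 77.3% in old sums. Igfbp2 made up 34.0% and 21.2% in newborn and 0.191% to 3.51% in adult sums. Relative to Igf1, the summed binding protein level was 7.23 and 5.69 TPM per TPM in newborn sums, 117 and 93.9 in young sums, then 58.9 and 119 in old sums, so that adult sums lay above newborn ones in both experiments and young and old overlapped.

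**Figure D3:**
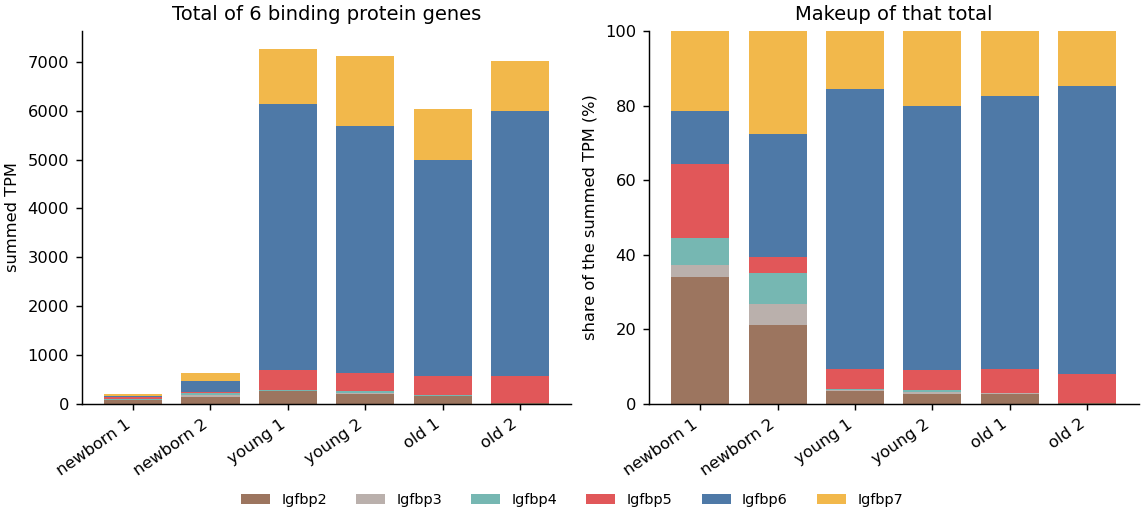
Summed TPM of the 6 binding protein genes in each age and experiment (left) and the share of each gene in that total in percent (right). Adult totals of 6034 to 7263 TPM stand above newborn totals of 205 and 638 TPM, and Igfbp6 makes up 70.9% to 77.3% of the adult totals.

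In single cells, adult reads of Igfbp6 were spread over many cells. Reads of it were found in 7.0% and 17.6% of newborn cells, 93.7% and 99.0% of young cells, then 92.9% and 98.2% of old cells. After each cell was thinned to 100000 reads the shares were 4.4% and 9.9% for newborn cells, 93.0% and 99.0% for young cells, then 92.1% and 96.5% for old cells, so the difference was as large at equal depth. In adult sums 22 to 30 cells held 50% of the Igfbp6 reads, and the cell with most reads held 3.32% to 6.19%. Newborn cells had a read of 0.52 and 0.91 of the 6 binding protein genes on average, young cells of 2.72 and 2.77, and old cells of 2.49 and 2.62. No read of any of the 6 was found in 59.5% and 49.5% of newborn cells, in 0% of young cells in both experiments, and in 3.17% and 0% of old cells. Igfbp5, Igfbp6 and Igfbp7 were all read in 0% and 1.10% of newborn cells, 62.7% and 64.4% of young cells, then 55.6% and 60.5% of old cells. Of the cells with an Igf1 read, 29.0% and 40.7% of newborn cells, 100% of young cells in both experiments, and 94.3% and 100% of old cells had a read of at least 1 of Igfbp5, Igfbp6 and Igfbp7.

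**Figure D4:**
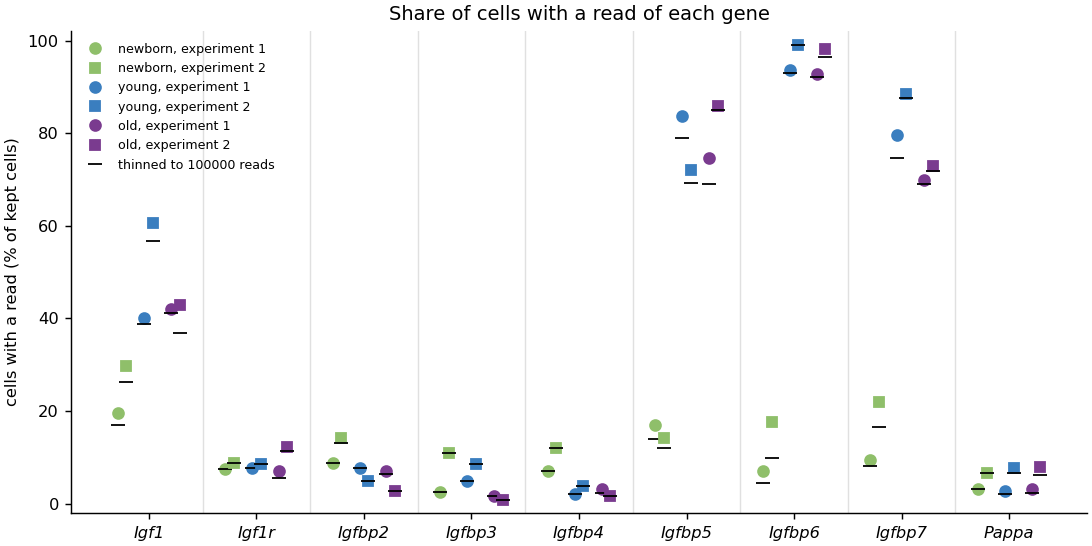
Percent of kept cells with at least 1 read of each gene, by age (colour) and experiment (circle or square), with black dashes for the same cells thinned to 100000 reads. Adult shares of Igfbp5, Igfbp6 and Igfbp7 lie between 69.8% and 99.0%, newborn shares at or below 22.0%, and Igf1r, Igfbp2, Igfbp3, Igfbp4 and Pappa stay at or below 14.3% at every age.

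Within an age, correlations over all cells of a set among the more widely read genes Igf1, Igfbp5, Igfbp6 and Igfbp7 were weak in adult cells. Higher values over all cells were found for pairs with few cells in common. Pearson correlations of log2(CPM + 1) in the 4 adult sets of 104 to 142 cells were 0.07 to 0.25 between Igfbp5 and Igfbp6, -0.02 to 0.34 between Igfbp5 and Igfbp7, and -0.10 to 0.25 between Igfbp6 and Igfbp7. These values include cells without a read. In cells with both genes, Igfbp6 and Igfbp7 correlated at -0.15 and -0.19 in young cells and at 0.43 and 0.23 in old cells. Igf1 and Igfbp7 then correlated at 0.34 and -0.01 in young cells and at 0.08 and -0.18 in old cells. Igfbp5 then gave -0.07 to 0.26 with Igfbp6 and -0.09 to 0.05 with Igfbp7. Igfbp5 and Igfbp6 were read together in 78.9% of young cells of experiment 1, beside 78.5% for the product of their shares, and the other adult sets gave 72.1% beside 71.4%, 72.2% beside 69.3% and 84.2% beside 84.5%. Since nearly all adult cells had an Igfbp6 read, the joint share could hardly depart from the product, and it does not bear on whether the genes were read independently. Over all cells of a set, Igf1 correlated at -0.26 to 0.18 with Igfbp6, at -0.07 to 0.08 with Igfbp5 and at -0.08 to 0.17 with Igfbp7. In cells with both genes, Igf1 gave -0.21 to 0.08 with Igfbp6 and -0.31 to 0.04 with Igfbp5. The signs changed between sets. In old cells Igfbp4 correlated with Igfbp6 at -0.46 and -0.34, with Igfbp4 read in 4 and 2 cells, against 0.12 and 0.06 in young cells, with 3 and 4 such cells. In newborn cells Igfbp4 correlated with Igfbp6 at 0.42 and 0.40 and with Igfbp7 at 0.11 and 0.69, on 2 and 4 cells with both Igfbp4 and Igfbp6 and 2 and 9 cells with both Igfbp4 and Igfbp7. Igfbp3 and Igfbp7 correlated at -0.05 and 0.43 in newborn cells, with 0 and 6 cells holding both, and Igfbp6 and Igfbp7 at 0.23 and 0.37, with 2 and 7. Cells of a set came from 4 or 5 plates and differed in depth. With the number of genes per cell, adult sets gave correlations of 0.06 to 0.26 for Igfbp5, 0.10 to 0.33 for Igfbp6 and -0.07 to 0.25 for Igfbp7. Over all cells thinned to 100000 reads, the adult ranges were 0.08 to 0.26 for Igfbp5 and Igfbp6, -0.02 to 0.36 for Igfbp5 and Igfbp7 and -0.11 to 0.27 for Igfbp6 and Igfbp7.

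**Figure D5:**
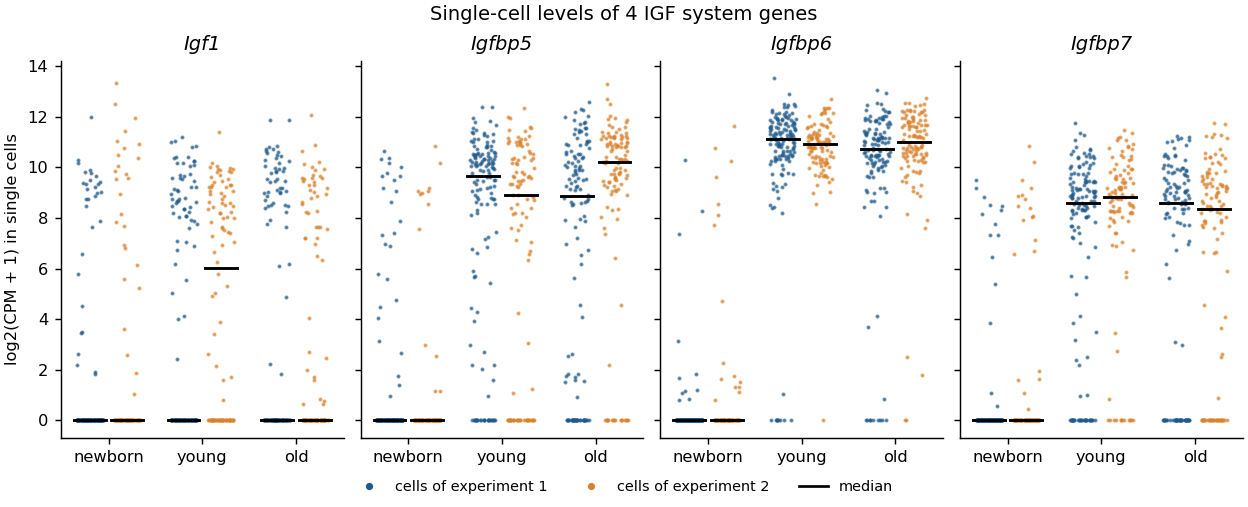
Level of Igf1, Igfbp5, Igfbp6 and Igfbp7 in single cells as log2(CPM + 1), for newborn, young and old cells of experiments 1 and 2, with the median of each set as a bar. Medians of Igfbp5, Igfbp6 and Igfbp7 are 0 in both newborn sets and well above 0 in all adult sets, while that of Igf1 is 0 in all sets except young cells of experiment 2.

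The genes most like each member across adult cells were sought among 2312 genes read in at least 20% of cells of all 4 adult sets, by the mean Pearson correlation over the sets, and all values were low. For Igf1 they were Gpx3 (0.20), a secreted peroxidase, Nfkbia (0.19), an inhibitor of NF-kB, and Cilp (0.19), a matrix protein. For Igfbp5 they were S100a4 (0.31), a calcium-binding protein of fibroblasts, the gene model Gm42674 (0.30) and H2-D1 (0.29), a class I histocompatibility gene with near-identical relatives. Gm42674 overlaps S100a4 on the same strand over 2115 bases and was read in at most 1 cell without S100a4 in any set, so the assignment of reads between them is uncertain. For Igfbp6 they were Ly6c1 (0.32) and Ly6c2 (0.28), near-identical copies of a surface protein gene whose reads could be split between them, and Il1r2 (0.30), a decoy receptor for interleukin 1. For Igfbp7 they were Polr2b (0.35), an RNA polymerase subunit, Ndufa4l2 (0.25) and Sparc (0.21), a matrix glycoprotein. Polr2b lies on the opposite strand and overlaps the 3' end of Igfbp7 by 85 bases. It was read in 63.7% and 68.5% of young cells, 71.6% and 81.9% of old cells with Igfbp7, against 6.9% and 8.3% of young cells, 2.6% and 3.2% of old cells without. The median was 2 to 4 Polr2b reads in such adult cells, beside 649.5 to 1202 Igfbp7 reads, and the correlation was 0.21 after thinning. Reads of the overlap are of uncertain assignment for both genes.

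Other genes of the IGF pathway were taken from 5 lists, which hold no member of the 9. Of 20 ligands, receptors, carriers and related proteins outside the 9, 12 were tested, and 1 changed by edgeR's test in each newborn comparison and 0 between old and young, where edgeR called 0.779% of all genes between young and newborn, 0.935% between old and newborn and 0% between old and young. It was Ccn1, a matricellular protein of the family once called IGF-binding-related proteins, with 5506 and 5068 CPM in newborn sums, 1268 and 1486 in young sums, then 805 and 839 in old sums. Ccn1 fell by 1.94 ± 0.18 on the log2 scale in young and by 2.69 ± 0.18 in old over newborn sums (SE), at edgeR adjusted p of 0.024 and 0.011. The median log2 fold change of the 12 was -0.50 for old over young, -0.22 for young over newborn and -1.21 for old over newborn. An unadjusted edgeR p under 0.05 was found for 3 of the 12 between old and young, 6 between young and newborn and 4 between old and newborn, where DESeq2 called 2, 5 and 4 and limma 0, 4 and 4. Over all 16684 genes such a p was found for 4.85%, 13.3% and 15.2%, and DESeq2 called 1047, 2358 and 2828 genes and limma 0, 1092 and 1414. Ghr, the growth hormone receptor that drives Igf1 in liver, had 24.2 and 58.3 CPM in newborn sums, 424 and 486 in young sums, then 505.7 and 533 in old sums, and missed the threshold at adjusted p of 0.072 for young over newborn and 0.060 for old over newborn. Its log2 fold changes were 3.46 and 3.65, and 4.24 and 4.43 without the newborn sum of experiment 2, which left a lone newborn sum. Kazald1, related to the binding proteins, had 137 and 100.4 CPM in newborn sums, 545 and 117 in young sums, then 84.9 and 29.8 in old sums. Ccn4 had 65.0 and 191 CPM in newborn sums, 38.7 and 41.3 in young sums, then 6.44 and 11.1 in old sums. Igfbp1 had no read in any sum.

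Of 41 genes of receptor signalling, all were tested, and edgeR called 1 between old and newborn, where it called 0.935% of all genes. It called 0 of the 41 between young and newborn and between old and young, beside 0.779% and 0% of all genes. The gene that passed was Pik3r1, which encodes the regulatory subunit of PI3 kinase. It had 28.7 and 27.6 CPM in newborn sums, 168 and 138 in young sums, then 229 and 157 in old sums. Pik3r1 rose by 2.78 ± 0.31 on the log2 scale in old over newborn sums (SE, edgeR adjusted p = 0.035), and the young over newborn value of 2.44 ± 0.30 had an adjusted p of 0.051. The genes of the list with the highest levels did not pass the test. Means in newborn, young and old sums were 228, 209 and 233 CPM for the kinase Gsk3b, 184, 177 and 187 CPM for Nras, 191, 199 and 175 CPM for the mTOR activator Rheb and 284, 216 and 215 CPM for the ribosomal protein Rps6. The list's median log2 fold change was 0.04 for old over young, -0.13 for young over newborn and -0.23 for old over newborn. An unadjusted edgeR p under 0.05 was found for 3, 7 and 9 of the 41, and DESeq2 called 3, 8 and 11 and limma 0, 2 and 4, in the order of these comparisons, beside 4.85%, 13.3% and 15.2% of all genes with such a p and the calls over all genes given above. The calls of Ccn1 in young over newborn and of Pik3r1 were lost when any 1 sum was left out, at edgeR adjusted p of 0.078 to 0.195 and 0.114 to 0.182. Both were lost with the replicate block as well, at adjusted p of 0.055 and 0.066. That of Ccn1 in old over newborn was kept in 1 of 6 such fits, that without the newborn sum of experiment 2, at adjusted p of 0.050 to 0.140, and with the block, at 0.041.

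No gene of the 3 other lists passed edgeR's adjusted threshold in any comparison. Of 18 tested proteases of binding proteins and their inhibitors, 5 had an unadjusted p under 0.05 between old and young, 9 between young and newborn and 7 between old and newborn, where DESeq2 called 4, 10 and 7 and limma 0, 3 and 4. In these comparisons, and for the next lists too, 4.85%, 13.3% and 15.2% of all 16684 genes had such a p, and over all genes DESeq2 called 1047, 2358 and 2828 and limma 0, 1092 and 1414. Means in newborn, young and old sums were 999, 2347 and 1968 CPM for the cathepsin gene Ctsb, 532, 2304 and 2199 CPM for Ctsl, 765, 1048 and 863 CPM for the serine protease gene Htra1 and 597, 1348 and 696 CPM for the gelatinase gene Mmp2. Of 19 FoxO factors and targets, genes that insulin and IGF signalling restrains, 0, 6 and 5 had such an unadjusted p, and DESeq2 called 0, 6 and 6 and limma 0, 1 and 2. Means were 11.7, 224 and 215 CPM for the repressor Bcl6, 50.1, 202 and 197 CPM for Txnip, 134, 85.9 and 85.9 CPM for the catalase gene Cat and 98.4, 108 and 92.9 CPM for the dismutase gene Sod2. Bcl6 differed between experiments, with 417 and 30.9 CPM in the young sums. Txnip did too, with 89.9 and 314 CPM in the young and 121 and 274 CPM in the old sums. Of 8 growth hormone signalling genes, 0, 4 and 5 had such an unadjusted p, and DESeq2 called 0, 5 and 5 and limma 0, 1 and 1. Their feedback inhibitors Socs1, Socs2 and Socs3 averaged 14.1, 51.2 and 54.8 CPM, 41.2, 52.8 and 61.9 CPM, and 65.2, 172 and 166 CPM (means of newborn, of young and of old sums). The median log2 fold changes for old over young, young over newborn and old over newborn were -0.33, 0.89 and 0.20 for the proteases, -0.12, 0.13 and 0.06 for the FoxO list and 0.21, 1.44 and 2.06 for growth hormone signalling, beside 0, -0.07 and -0.08 over all genes tested.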

How the data were processed

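Single dermal fibroblasts were sequenced in plates, and the authors deposited raw read counts per gene and cell, in tables by plate, which hold whole numbers. The submitters' processing notes name GRCm38 and FastQC, and the aligner, the counting program and the strand setting are not given in these sources. Reads were counted without molecular identifiers. The labels gave age and experiment for 1049 columns, of which 5 held no values. Of 11 tables, 2 pairs held the same wells (median correlation over genes at least 0.994 against at most 0.433 for other pairs) and were added, giving 861 wells on 9 plates. The tables came with 2 annotations, and the 51777 genes common to both were kept, with 908 other entries left out. Symbols and positions came from GENCODE M21, and 144 genes were unmatched.

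Cells were kept with at least 50000 reads, 1000 genes and at most 25% mitochondrial reads, leaving 249 newborn cells from 256 wells, 246 young cells from 287 and 240 old cells from 318. Kept cells held 246349 to 4331293 reads. Counts of the kept cells were added per age and experiment and tested with edgeR 4.0.16 in R 4.3.3 (TMM, filterByExpr, robust glmQLFit with no term but age, Benjamini-Hochberg adjustment, threshold 0.05). The fit had 3 residual degrees of freedom and a common coefficient of biological variation of 1.135. DESeq2 1.42.0, limma 3.58.1, other filters, thinning, all wells and leaving out each sum were alternatives. TPM used merged exon lengths. Shares, plates and correlations across cells (Python 3.11.15, pseudocount 1) are descriptions. The test was checked on simulated data with 8-fold changes and far less spread between sums than in these data. That check does not show the power or the error of the test here. The labels tie the replicate number to an experiment, and each plate of an experiment holds all ages, so the number marks a shared batch that pairs the sums, and a fit with experiment as a replicate block was run beside the one without it. Over genes, the deviations of experiment 1 from the age means correlated at 0.013 between old and young sums, -0.00017 between young and newborn sums and 0.011 between old and newborn sums. With 2 sums per age the deviations of experiment 2 mirror these and add nothing further.

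The 9 genes, the pathway lists and the marker lists were chosen with earlier results of these data known. The text names all 9 genes, and from each pathway list any gene past the threshold (up to 6) and up to 4 with the highest mean level. Like genes were the 3 with the highest mean correlation.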

Additional observations from a re-analysis of the deposited data

How the results depend on the processing

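All fitted log2 fold changes of Igfbp5, Igfbp6 and Igfbp7 over newborn were positive in each of the 15 alternatives run. With the replicate block, 25 genes were called for young over newborn and 51 for old over newborn, against 130 and 156, and 0 of the 9 IGF genes in each, where Igfbp5 had adjusted p of 0.079 and 0.066. Ccn1 for young over newborn and Pik3r1 for old over newborn lost their calls with the block too, at 0.055 and 0.066, and no other call of the genes recomputed changed. Under it Igfbp2 for old over newborn was -0.45, against 0.07 without it. Genes called for old over young, young over newborn and old over newborn were 1047, 2358 and 2828 with DESeq2, 9, 492 and 550 among genes read in at least 10% of cells of an age, 0, 254 and 281 with thinned cells, and 0, 1092 and 1414 with limma. Without a filter, 2 were called for old over young. DESeq2, the 10% filter and limma each called 3 of the 9 higher in both newborn comparisons, and DESeq2 called 1 lower for old over newborn. The cause was not tested.

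Values that changed sign had not passed the test in that comparison. With limma these were Igf1 (-0.59), Pappa (0.0089), Ghr (-0.63) and Pik3r1 (-0.14) for old over young, Igfbp2 (-0.34), Igfbp3 (-0.0089) and Igfbp4 (-0.55) for young over newborn, and Igfbp2 (-0.55) for old over newborn. With thinned cells they were Igfbp4 (-0.57) and Pappa (0.16) for young over newborn and Pappa (0.12) for old over newborn. Without the cell of most reads they were Igfbp4 (-1.24) for young over newborn and Igfbp2 (-0.16) for old over newborn, log2 scale throughout.

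Leaving out each sum in turn gave 0 to 42 genes called for young over newborn and 0 to 47 for old over newborn, with 0 to 2 of the 9 called higher in each. The 2 were Igfbp6 and Igfbp7, without the newborn sum of experiment 2. Log2 fold changes for old over young then ran between -0.19 and 0.55 for Igf1, -0.53 and 0.62 for Igf1r, -0.0013 and 0.52 for Igfbp5, and -0.27 and 0.079 for Igfbp6. For young over newborn they ran between -0.33 and 1.65 for Igf1, -0.11 and 0.90 for Igf1r, -0.56 and 1.77 for Igfbp3, -0.55 and 1.31 for Igfbp4, and -0.85 and 0.85 for Pappa. For old over newborn they ran between -0.099 and 1.89 for Igf1, -0.050 and 0.92 for Igf1r, -2.50 and 0.94 for Igfbp2, -1.92 and 0.73 for Igfbp3, and -1.66 and 0.043 for Pappa. A lone remaining sum was assumed to vary like the other ages. With 2 sums per age, and genes such as Igfbp2 and Igfbp3 read in few cells, the number of sums and of cells limits precision beside the number of reads. Of the pathway genes named by the rule, Ccn1, Ghr and Pik3r1, with an adjusted p under 0.1, were recomputed.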

Other observations

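Some listed genes that were seen mainly in newborn cells were chosen after their values were seen. Igf2, the fetal IGF ligand, had 32.8 and 124 CPM in newborn sums, 1.48 and 9.30 in young sums, then 22.3 and 14.5 in old sums, and had a read in 25.9% and 38.5% of newborn cells, 0.704% and 3.85% of young cells, then 7.94% and 8.77% of old cells. Newborn sums were above all adult sums, and old sums were above young sums. Igf2bp3, an RNA-binding protein that binds Igf2 mRNA, had 22.6 and 7.34 CPM in newborn sums and at most 2.20 CPM in any adult sum. Pappa2, the other pappalysin, had 14.7 and 29.5 CPM in newborn and 0.459 and 0.734 CPM in young sums, and no read in the old sums. None of these genes passed edgeR's adjusted threshold in any comparison. DESeq2 and limma both called Igf2 and Igf2bp3 between young and newborn, and limma called them between old and newborn too. Pappa2 was called by DESeq2 in every comparison and by limma between old and newborn. The calls of these tools over all genes are given above.

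In the newborn cells of experiment 2, 9 of 91 had reads of both Igfbp4 and Igfbp7. All 9 had reads of Col1a1 and Dcn, as did the other 82. Acta2, a mural and myofibroblast marker, was read in 5 of the 9 and in 2 of the 82. The mural marker Cspg4 was read in 1 of the 9 and in 6 of the 82, Pdgfra in 4 of the 9 and in 42 of the 82, and Rgs5 in none of the 91. The cells were picked after their values were seen, and no test was made.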
